A study of Drosophila melanogaster and Drosophila simulans and Drosophila yakuba with 24 samples.

Results

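A set of 8 genes used as markers of glia, the support cells of the nervous system, was followed across the body of the adult fly: repo, moody, Eaat1, Gs2, Gat, Mdr65, nrv2 and alrm. They were found by gene symbol in a table of read counts for 13898 genes, and 8 of 8 had a row. Gat and alrm stand in that table under their older names CG1732 and CG11910. The gene identifiers are FBgn0011701 for repo, FBgn0025631 for moody, FBgn0026439 for Eaat1, FBgn0001145 for Gs2, FBgn0039915 for Gat, FBgn0004513 for Mdr65, FBgn0015777 for nrv2 and FBgn0039332 for alrm. The libraries came from total RNA, depleted of ribosomal RNA, of wild-type Canton S females kept for 10 days after eclosion. Head, thorax, eviscerated abdomen (the abdomen without ovary and gut, called abdomen where levels are given) and ovary were each sequenced in 3 libraries, and each library came from body parts of 25 to 100 flies. No group carried a transgene or a mutation. The series holds 24 samples, and the other libraries, of fat body with and without piwi and of small RNA, carry no gene counts used here.

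Glia insulate neurons, clear transmitter from around synapses and form the blood-brain barrier of the fly. The barrier is made by surface glia, whose subperineurial layer is sealed by septate junctions, while astrocyte-like and ensheathing glia lie within the brain and the ventral nerve cord. In the fly the brain lies in the head and the ventral nerve cord in the thorax, from where nerves run to the abdomen. The homeodomain transcription factor Repo is present in nearly all glia outside the midline. Moody, a G protein coupled receptor, and Mdr65, an ABC transporter, belong to the barrier, and Nrv2 is a beta subunit of the sodium pump. Eaat1 takes up glutamate, Gat takes up GABA, Gs2 is a glutamine synthetase that turns glutamate into glutamine, and alrm encodes a leucine-rich repeat protein used as a marker of astrocyte-like glia.

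The libraries held 14040598 to 19208152 reads in genes for head, 8087981 to 13630001 for thorax, 7884586 to 11600876 for eviscerated abdomen and 22247599 to 32498809 for ovary. Levels are given as CPM (counts scaled to a common library total) after TMM scaling, which compares tissues for 1 gene but not genes with each other, because it takes no account of gene length. Eviscerated abdomen replicate 1 stood apart from replicates 2 and 3, with a chi-square per gene of 124 and 92.4 against 13.6 between the others, and thorax replicate 3 stood apart from the other thorax libraries (50.9 and 39.5 against 14.3). The libraries labelled eviscerated abdomen also held reads of ovarian marker genes. Their 5 germline markers summed to 602 to 1409 CPM against 1819 to 1922 CPM in ovary and 4.14 to 25.3 CPM in head, and their 5 follicle cell markers summed to 3928 to 5695 CPM. The part of ovarian RNA in the levels of the glial genes was not tested. In whole body parts, fewer glia and less RNA per glial cell cannot be told apart.

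Head and thorax held the highest summed levels of the 8 genes. Gs2 had the largest part of that sum in reads, without account of gene length, with means of 1515 CPM in head and 1655 CPM in thorax. The 8 genes together summed to 2156 to 2454 CPM in head and 2023 to 2612 CPM in thorax, against 350.2 to 459.8 CPM in the abdomen and 23.3 to 28.5 CPM in ovary. The ranges of head and thorax overlapped, and those of the other tissues lay below both. The mean levels ran head, thorax, eviscerated abdomen, ovary for repo, moody, Gat, Mdr65, nrv2 and alrm, and thorax, head, eviscerated abdomen, ovary for Eaat1 and Gs2.

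**Figure D1:**
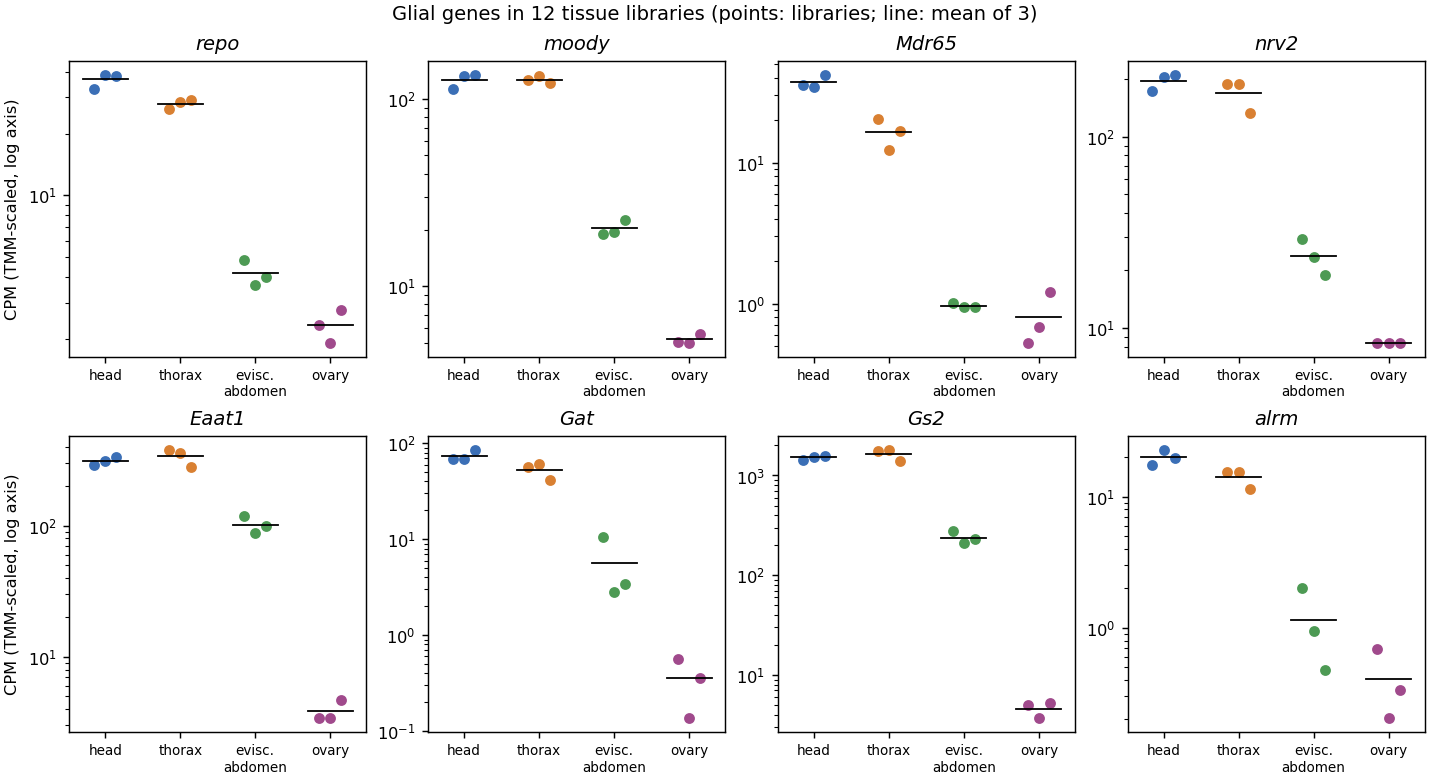
Level of each of the 8 glial genes in the 12 libraries, in TMM-scaled CPM on a log axis, with 1 point per library and the mean of each tissue as a line. Head and thorax lie close together for most genes, eviscerated abdomen lies below both, and Gs2 covers the widest range, from a mean of 1655 CPM in thorax to 4.604 CPM in ovary.

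Repo, the factor that marks glia as a class, was read at 33.1, 38.8 and 38.1 CPM in the 3 head libraries and at 26.3, 28.5 and 29.0 CPM in thorax. It fell to 4.83, 3.64 and 4.02 CPM in the abdomen and to 2.33, 1.91 and 2.75 CPM in ovary. None of the 4 tissues overlapped with another. Thorax stood at 76.1% of head, a log2 change of -0.39 (SE 0.149), with an adjusted p of 0.0493 in edgeR's quasi-likelihood test. That call was lost in 11 of the 15 other settings tried. Among them was the fit with the replicate number as a block (adjusted p = 0.0731 in edgeR). The removal of any 1 of 5 single libraries of head or thorax also lost it. The direction turned on the authors' RPKM (reads scaled by gene length and library). There the median of all genes moved from -0.17 to 0.73 or 0.51, depending on the pseudocount. The abdomen was 8.79-fold below head (log2 change -3.14, SE 0.172, adjusted p = 3.45e-09 in edgeR), and ovary was 15.6-fold below head. Gene CG7156 overlaps repo in the RefSeq annotation, and without a stated use of strand the reads of the overlap cannot be assigned to either gene. CG7156 had 12.2 to 14.4 CPM in head and 9.65 to 11.6 CPM in thorax, which like repo lay lower without overlap, but its order over the other tissues was the opposite, with 20.6 to 34.2 CPM in the abdomen and 41.4 to 45.8 CPM in ovary.

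Among the genes of the barrier, moody was even between head and thorax while Mdr65 was not. Moody was read at 113, 133 and 135 CPM in head, at 126, 132 and 121 CPM in thorax, at 19.0, 19.6 and 22.7 CPM in the abdomen and at 5.04, 4.97 and 5.60 CPM in ovary. The head and thorax libraries overlapped, with a log2 change of -0.01 (SE 0.128, adjusted p = 0.969 in edgeR), and the sign of that small change turned with the scaling. The abdomen held 16.1% of the head level and ovary lay 24.4-fold below head. Moody overlaps CG4313 in the annotation, a gene at 8.93 to 11.03 CPM in head and 4.11 to 6.92 CPM in thorax.

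Mdr65, the transporter of the barrier, was read at 35.5, 34.2 and 42.2 CPM in head and at 20.5, 12.4 and 16.7 CPM in thorax. These groups did not overlap, and thorax stood at 44.3% of head (log2 change -1.18, SE 0.234, adjusted p = 0.00129 in edgeR), the largest difference of the 8 genes between these tissues. The abdomen had 1.00, 0.951 and 0.947 CPM, from 11, 12 and 8 reads, and ovary had 0.523, 0.681 and 1.21 CPM, from 22, 20 and 50 reads. Both tissues were near the limit of detection, and they overlapped with each other. The distance from head to eviscerated abdomen was 38.3-fold, the largest of the 8 genes.

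Nrv2, the pump subunit, had 174, 205 and 212 CPM in head, 190, 188 and 133 CPM in thorax, 29.3, 23.5 and 18.8 CPM in the abdomen and 8.32, 8.34 and 8.35 CPM in ovary. Head and thorax overlapped (log2 change -0.21, SE 0.178, adjusted p = 0.366 in edgeR), and thorax replicate 3 was the lowest of those 6 libraries. The abdomen was 8.22-fold below head and ovary 23.6-fold below head.

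The genes of glutamate handling, Eaat1 and Gs2, were the members with a thorax mean above the head mean, an order that turned with scaling by library size alone. Eaat1 was read at 292, 314 and 336 CPM in head, at 380, 357 and 282 CPM in thorax, at 118, 88.2 and 99.2 CPM in the abdomen and at 3.42, 3.40 and 4.71 CPM in ovary. Head and thorax overlapped (log2 change 0.12, SE 0.174, adjusted p = 0.623 in edgeR). In eviscerated abdomen Eaat1 kept 32.4% of its head level, the highest share of the 8 genes, a 3.09-fold difference (log2 change -1.63, SE 0.179, adjusted p = 2.73e-06 in edgeR).

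Gs2 was read at 1423, 1537 and 1585 CPM in head and at 1756, 1818 and 1389 CPM in thorax, which overlapped (log2 change 0.13, SE 0.176, adjusted p = 0.591 in edgeR). It fell to 276, 210.5 and 230.1 CPM in the abdomen and to 4.95, 3.68 and 5.19 CPM in ovary. The abdomen was 6.35-fold below head, and ovary was 328-fold below head, the largest distance of any member from head.

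Gat, the GABA transporter, and alrm, the marker of astrocyte-like glia, fell in the abdomen to 7.54% and 5.89% of their head levels. Gat had 68.3, 69.2 and 85.9 CPM in head, 56.0, 60.3 and 41.3 CPM in thorax, 10.5, 2.85 and 3.43 CPM in the abdomen and 0.571, 0.136 and 0.362 CPM in ovary. Its thorax libraries lay below its head libraries without overlap, but the change did not pass the test (log2 change -0.50, SE 0.351, adjusted p = 0.270 in edgeR). Eviscerated abdomen replicate 1 held 115 Gat reads against 36 and 29 in the other libraries, and without it the log2 change from head moved from -3.73 to -4.55. Alrm had 17.4, 22.9 and 19.9 CPM in head, 15.5, 15.6 and 11.4 CPM in thorax, 2.00, 0.951 and 0.473 CPM in the abdomen and 0.690, 0.204 and 0.338 CPM in ovary. The head and thorax libraries of alrm did not overlap either, and the log2 change was -0.50 (SE 0.316, adjusted p = 0.225 in edgeR). Its eviscerated abdomen libraries held 22, 12 and 4 reads, and without replicate 1 the log2 change from head moved from -4.09 to -4.69. Alrm overlaps Fur1, which is more highly read in every tissue (122 to 155 CPM in head and 39.7 to 67.5 CPM in the abdomen).

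Read over the whole list, thorax against head gave 0 members higher and 2 lower, repo and Mdr65, in edgeR's quasi-likelihood test at an adjusted p of 0.05 over 11188 genes. Of all genes tested, 16.5% were called higher and 25.4% lower, so 2 of 8 is the share that the whole table shows. At an unadjusted p under 0.05 the counts were also 0 and 2, and DESeq2 called 0 higher. With the authors' RPKM, limma called 4 or 5 higher, depending on the pseudocount. The share of all genes called in limma was not counted. Head and thorax did not overlap for 4 members, all lower in thorax, against 35.4% of all genes. The median log2 change of the members was -0.30 against -0.17 over all genes. On the RPKM scale the small changes of repo, moody, Gat, nrv2 and alrm turned positive, with the all-gene median at 0.73 or 0.51 by pseudocount. Mdr65 stayed negative there (-0.22 and -0.15) and lost its call (adjusted p = 0.504 and 0.441 in limma).

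The abdomen was lower than head for 8 of 8 members, where 39.2% of all genes tested were called lower, with no overlap between the libraries (40.0% of all genes) and member levels from 2.61% (Mdr65) to 32.4% (Eaat1) of head. The median log2 change was -3.09 against -0.08 over all genes. The abdomen was also lower than thorax for 8 of 8 members, against 36.9% of all genes, with a median of -2.81 against -0.08. The distances from thorax ran from -1.74 for Eaat1 to -4.08 for Mdr65 on the log2 scale. Without eviscerated abdomen replicate 1, the log2 changes from thorax moved to -4.07 for Gat and -4.22 for alrm, and 8 of 8 members were still called lower in both comparisons.

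In ovary, 8 of 8 members were lower than in head (46.4% of all genes tested were called lower) and 8 of 8 were lower than in thorax (43.7%). Against eviscerated abdomen, 7 of 8 were lower in ovary (35.9% of all genes), and the exception was Mdr65, with a log2 change of -0.25 (SE 0.375, adjusted p = 0.564 in edgeR). The other log2 changes from eviscerated abdomen ran from -0.83 for repo and -1.45 for alrm to -4.72 for Eaat1 and -5.69 for Gs2. The alrm call was lost without eviscerated abdomen replicate 1, where its log2 change was -0.79 with an adjusted p of 0.224 in edgeR, without ovary replicate 2 or 3, and with only the compared tissues in the fit (-1.54, adjusted p = 0.0601 in edgeR). Without eviscerated abdomen replicate 1, the log2 change of Gat moved from -3.88 to -3.01 and its call held. On the authors' RPKM, repo, moody, Mdr65, nrv2 and alrm turned positive. Limma on that scale called 2 or 1 members higher and 3 or 2 lower, by pseudocount, and the share of all genes called was not counted. The all-gene median there stood at 1.74 or 1.43 by pseudocount instead of -0.01.

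Neuron markers gave a second measure of nervous tissue. The list held elav, an RNA-binding protein of neurons, the synaptic vesicle proteins nSyb, Syt1 and Syn, the active zone proteins brp and cac, the GABA receptor Rdl and the vesicular transporters VAChT and VGlut. All 9 of these markers were lower in thorax than in head in the edgeR test, with 9.29% (Rdl) to 29.5% (VGlut) of the head level and a median log2 change of -2.91. The 8 glial genes stood at 44.3% to 109% of head in the same libraries, so their range did not overlap with that of the neuron markers. Other glial genes, described below, ran from 20.9% (Eaat2) to 151% (pnt) of head, and Eaat2 lay inside the neuron range. Summed neuron markers reached 5737 to 7032 CPM in head, 728 to 1025 CPM in thorax, 70.2 to 77.8 CPM in the abdomen and 14.1 to 15.9 CPM in ovary. In eviscerated abdomen the 9 neuron markers stood at 0.185% (Syt1) to 7.98% (elav) of head, with a median log2 change of -7.92. There the lists overlapped, because elav lay above Gat, Mdr65 and alrm, and Syn (2.76% of head) lay above Mdr65 (2.61%).

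**Figure D2:**
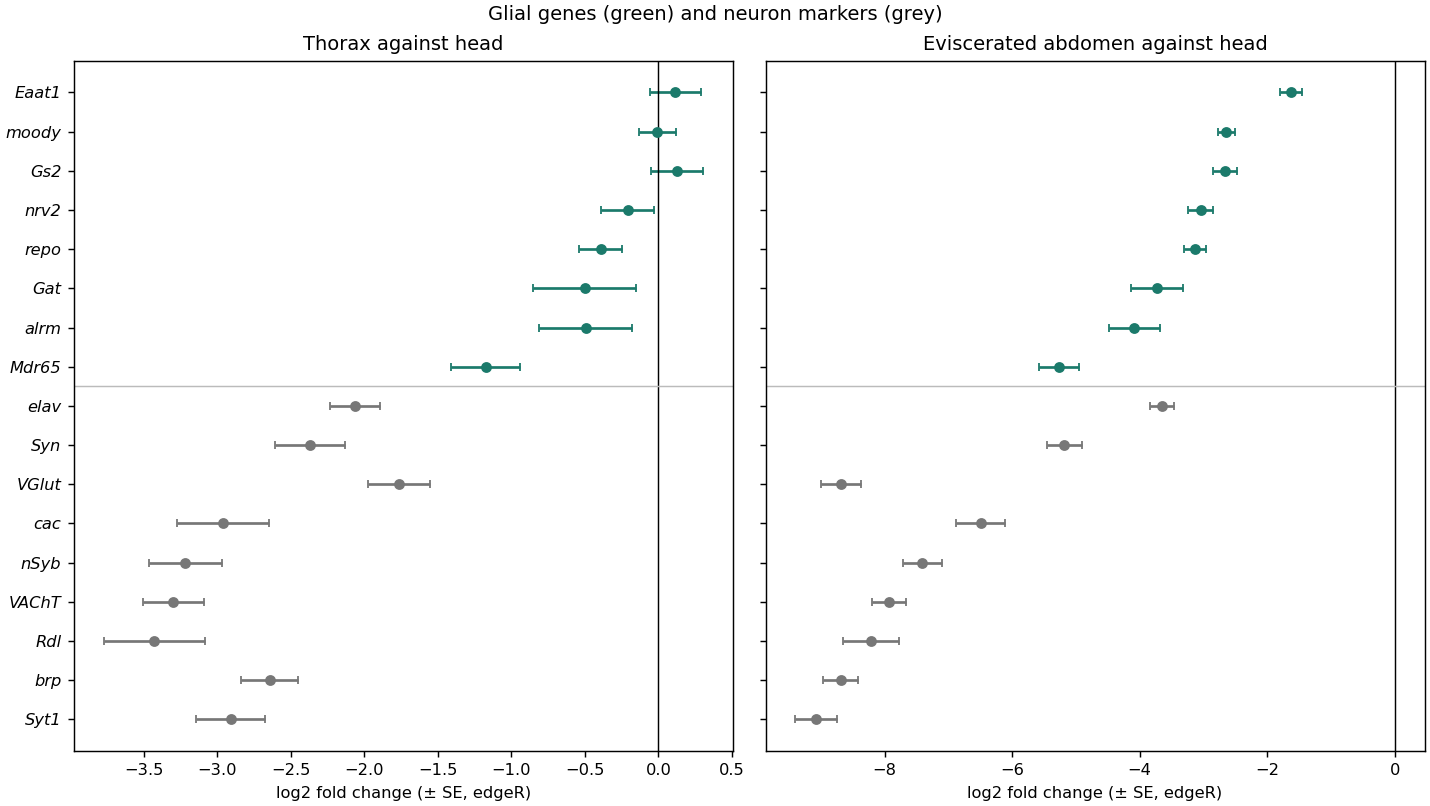
Log2 fold change against head, with its standard error from edgeR as bars, of the 8 glial genes (green) and the 9 neuron markers (grey), for thorax on the left and eviscerated abdomen on the right. In thorax every glial gene lies to the right of every neuron marker, with Mdr65 at -1.18 and VGlut at -1.76 nearest each other, and in eviscerated abdomen the lists overlap through elav and Syn.

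The comparison was repeated inside each library, where the scaling between libraries cancels, as the log2 ratio of a glial gene to the geometric mean of the 9 neuron markers. For repo this ratio was -4.17, -3.88 and -4.22 in head, -1.48, -1.80 and -1.88 in thorax and 0.08, 0.14 and -0.0039 in the abdomen. The tissues did not overlap, and the ratio rose in that order. In the abdomen the denominator rests in part on few reads. Over its 3 libraries together VGlut held 27 reads, brp 40, Rdl 71, Syt1 73 and VAChT 82, while elav held 1201. For Gs2 the ratio was 1.25, 1.43 and 1.16 in head, 4.58, 4.20 and 3.70 in thorax and 5.90, 5.97 and 5.81 in the abdomen, again without overlap.

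From head to thorax, the ratio was higher without overlap for 8 of 8 members, against 86.1% of all genes. The differences ran from 1.56 for Mdr65 (2.95-fold) to 2.88 for Gs2 (7.34-fold) on the log2 scale. From head to eviscerated abdomen the ratio was higher without overlap for 8 of 8, against 95.6% of all genes. The differences there ran from 2.09 for Mdr65 (4.27-fold) to 5.66 for Eaat1 (50.5-fold). From thorax to eviscerated abdomen it was higher without overlap for 6 of 8 members, against 90.0% of all genes. Those 6 differed by 1.08 for Gat to 2.79 for Eaat1, and the groups overlapped for Mdr65 (0.53) and alrm (0.75). In 24 exact 2-sided permutation tests, 22 reached p = 0.1, the smallest that 3 against 3 libraries can give, and the adjusted value was 0.109, so no ratio could pass the threshold of 0.05 in this design.

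A higher ratio to neuron markers was the rule for the whole table and not for glial genes alone. The share of all genes whose ratio was higher without overlap was 86.1% for thorax against head, 95.6% for eviscerated abdomen against head and 90.0% for eviscerated abdomen against thorax. An edgeR fit in which the libraries were scaled to the neuron markers, chosen after the data were seen, called 8 of 8 members higher in thorax than in head (85.5% of all genes) and 8 of 8 higher in the abdomen than in head (92.4%). Against thorax it called 6 of 8 higher in the abdomen (88.0%), without Mdr65 and alrm. The member median in that fit was 2.48 against 2.60 over all genes for thorax, and 4.19 against 7.22 for eviscerated abdomen. Against the neuron markers, then, the glial genes sat at the level of the typical gene in thorax and below it in the abdomen. The ratios for eviscerated abdomen also depended on the marker. With elav alone, the difference from thorax turned negative for 8 of 8 members, and the difference from head turned negative for Gat, Mdr65 and alrm, while thorax against head stayed positive for 8 of 8.

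**Figure D3:**
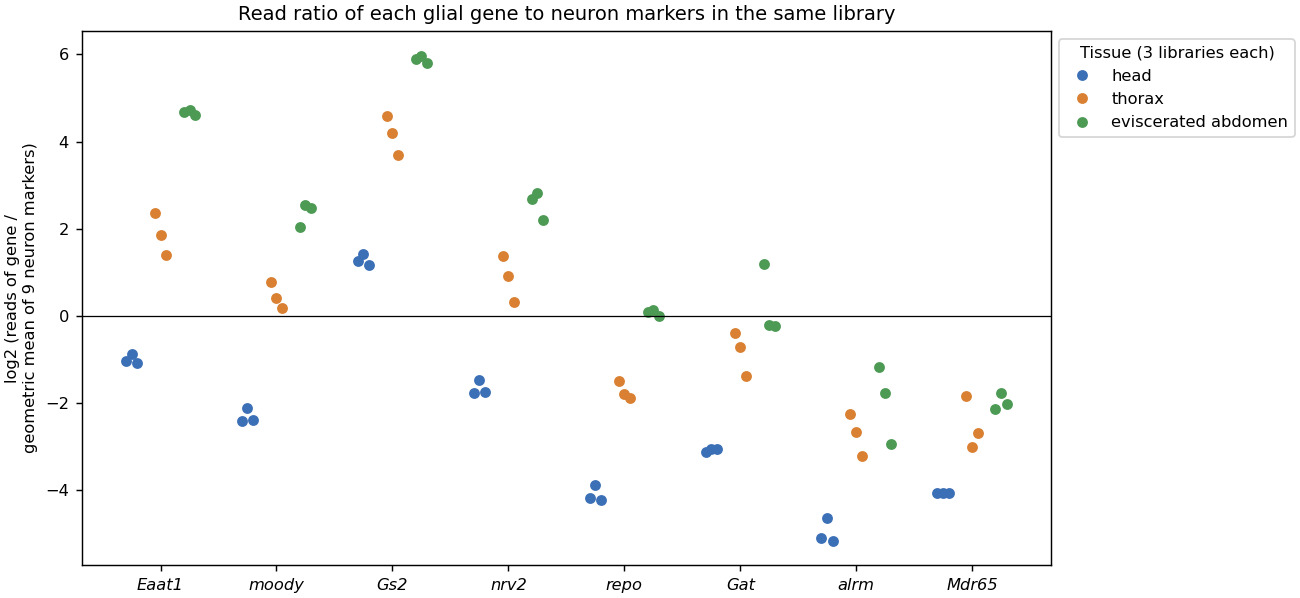
Log2 ratio of each glial gene to the geometric mean of the 9 neuron markers within each library of head, thorax and eviscerated abdomen, with 1 point per library. The head libraries are lowest for every gene, and thorax and eviscerated abdomen overlap for Mdr65 and alrm.

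Levels per length of different genes were compared on the authors' RPKM scale, which divides by gene length. In head the mean RPKM was 171 for Gs2, 23.0 for Eaat1, 12.8 for nrv2, 7.46 for moody, 5.91 for Gat, 2.83 for repo, 2.69 for alrm and 2.06 for Mdr65. The order of the means was the same in thorax and in the abdomen, although the RPKM of Gs2 was 361 in thorax and 32.4 in the abdomen. Gs2 and Eaat1 came first and second and Mdr65 last in each of the 9 libraries of these tissues, and 5 of the 9 had the full order of the head means. The swaps were between neighbours: repo with alrm, Gat with repo, and nrv2 with moody.

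Gs2 alone made up 74.6% to 75.7% of the summed RPKM of the 8 genes in head, 77.6% to 78.6% in thorax and 70.3% to 71.2% in the abdomen. In ovary the order was another one, with nrv2 at a mean RPKM of 2.54, Gs2 at 2.45, moody at 1.44, Eaat1 at 1.33 and repo at 0.845, and Gs2 made up 24.2% to 28.1% of the sum. The ratio of Eaat1 to Gs2 reads was 0.205, 0.204 and 0.212 in head, 0.217, 0.196 and 0.203 in thorax, 0.427, 0.419 and 0.431 in the abdomen and 0.692, 0.926 and 0.907 in ovary. This pair was picked after its values were seen and is given without a test.

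**Figure D4:**
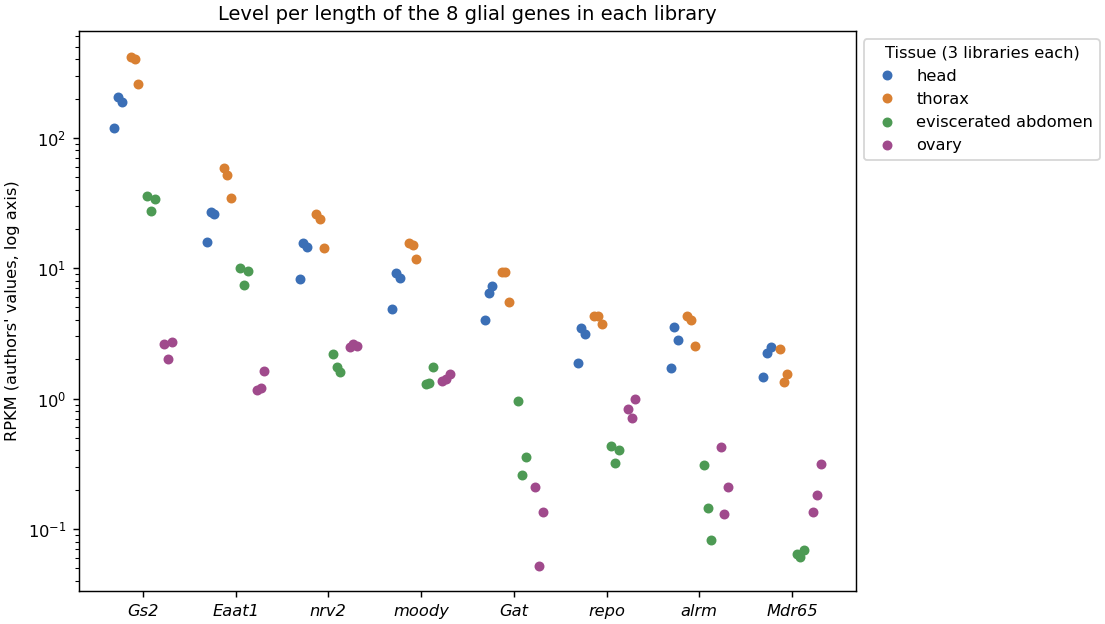
RPKM (the authors' values, reads scaled by gene length and library) of the 8 glial genes on a log axis, with 1 point per library coloured by tissue. Genes are placed in the order of their head means, from Gs2 to Mdr65, and in ovary nrv2, at a mean of 2.54, stands beside Gs2, at 2.45.

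Paralogs of the members were in part distributed differently over the body. Of the 7 paralogs, 4 were called lower and 2 higher in the abdomen than in head (39.2% of all genes were called lower). In ovary against head, 5 of 7 were called lower and 1 higher (46.4% of all genes were called lower). Their median log2 change there was -5.42, beside -5.53 for the members. Gs1, the mitochondrial glutamine synthetase, had mean levels of 211 CPM in head, 175 in thorax, 139 in the abdomen and 170 in ovary, a narrow range beside Gs2, whose ovary level lay 358-fold below thorax. Eaat2, the second transporter of the Eaat family, fell from 204 CPM in head to 42.6 in thorax and 1.26 in the abdomen, a log2 change of -2.26 in thorax and -7.29 in the abdomen against head. Eaat1 changed by 0.12 and -1.63 in the same comparisons.

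The other beta subunits of the sodium pump fell on either side of nrv2. Nrv1, which neighbours nrv2 in the genome, rose from 182 CPM in head to 323 in thorax (log2 change 0.83) and 298 in the abdomen (0.71). Nrv3, a beta subunit found in neurons, fell from 1429 CPM in head to 266 in thorax (-2.42) and 25.0 in the abdomen (-5.83). The log2 changes of nrv2 lay between, at -0.21 and -3.04.

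For the transporter Mdr65, the related Mdr49 rose from 21.0 CPM in head to 68.0 in thorax (log2 change 1.70) and fell to 9.07 in the abdomen (-1.21). Mdr50 had 6.31, 7.79 and 6.16 CPM in these tissues, and its changes from head did not pass the test (adjusted p = 0.630 and 0.952 in edgeR). Tre1, a receptor related to moody, rose from 4.63 CPM in head to 7.33 in thorax and 10.9 in the abdomen, with log2 changes of 0.65 and 1.23.

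**Figure D5:**
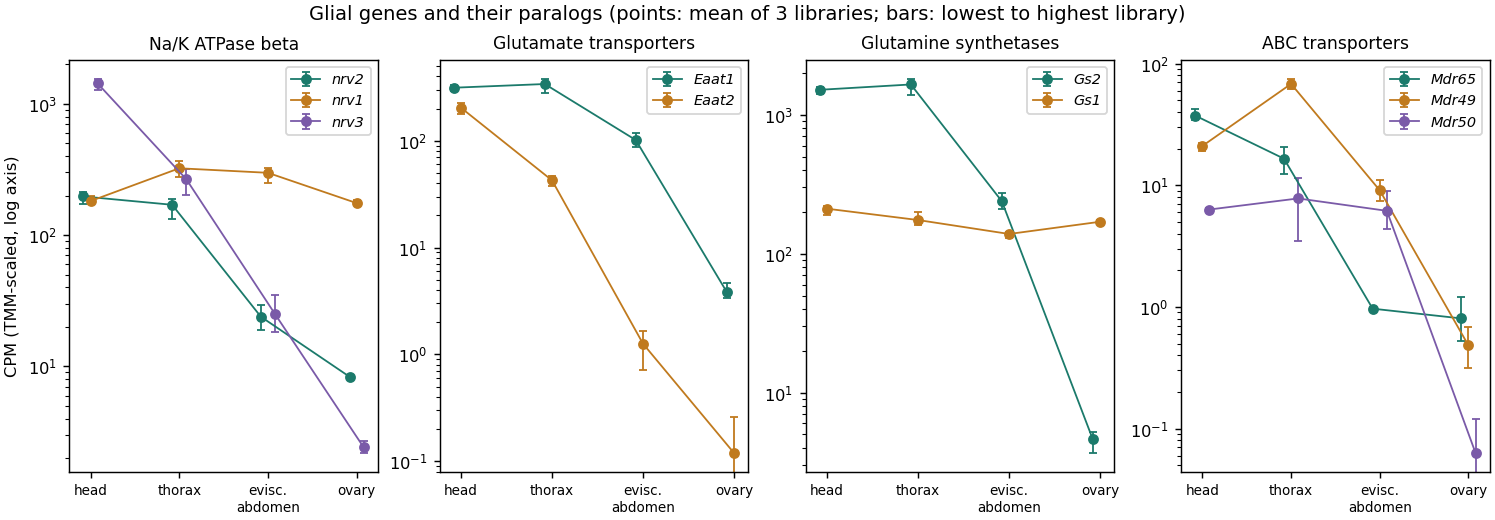
Level in TMM-scaled CPM, on a log axis, of the glial genes nrv2, Eaat1, Gs2 and Mdr65 and of their paralogs in the 4 tissues, with points at the mean of 3 libraries and bars from the lowest to the highest library. Lines join the tissues of 1 gene, and a bar that reaches the lower edge ends at a library with 0 reads, as for Eaat2 and Mdr50 in ovary. Gs1 stays between 139 and 211 CPM while Gs2 runs from 1655 CPM in thorax to 4.604 CPM in ovary.

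A wider list of 20 other glial genes gave a mixed picture. Of these, 19 were in the table and 17 had enough reads for the test, while gcm and gcm2, the factors that switch on glial fate in the embryo, were too low (gcm at 1.46 CPM in head). In thorax against head, 2 rose (pnt and Ncc69), 5 fell and 10 did not pass, beside 16.5% higher and 25.4% lower over all genes, with a median log2 change of 0.07. The largest were Eaat2 at -2.26, e (ebony, which conjugates amine transmitters with beta-alanine) at -1.06 and wrapper (an adhesion protein of glia that enwrap axons) at -0.94. In eviscerated abdomen against head, 2 rose (gb at 1.38 and CG6126 at 0.42) and 13 fell (39.2% of all genes were called lower), with a median of -1.47. The same genes were the lowest, Eaat2 at -7.29, wrapper at -6.41 and e at -6.20. Wrapper stood at 22.0 CPM in head, 11.4 in thorax and 0.261 in the abdomen. The median of this wider list in the abdomen lay above the -3.09 of the 8 members. In ovary against head, 3 rose (loco, Gabat and gb) and 11 fell (46.4% of all genes were called lower), with a median of -0.94. In ovary against eviscerated abdomen, 7 rose and 7 fell (35.9% lower over all genes). The shares of all genes called higher in these comparisons of abdomen and ovary are not given here, so the rises have no share to be set against. The 19 genes summed to 1381 to 1553 CPM in head, 1406 to 1561 in thorax, 691.5 to 818.4 in the abdomen and 678.4 to 739.9 in ovary.

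Septate junction genes build the seal of the barrier and also that of other epithelia. Of 16 tested, 2 rose (Gli and cora) and 2 fell (Atpalpha and bou) in thorax against head, no larger a share in either direction than the 16.5% higher and 25.4% lower over all genes. Gli, gliotactin, a transmembrane protein of the junction, rose from 38.2 to 61.7 CPM (log2 change 0.69), while Atpalpha, the alpha subunit that pairs with Nrv2 in the sodium pump, fell from 4249 to 2168 CPM (-0.97). In eviscerated abdomen against head, 1 rose (crok, 2.12) and 9 fell (39.2% of all genes were called lower), with a median of -0.92. The share of all genes called higher there is not given here. Gli and Atpalpha were the lowest, at -2.98 and -2.73.

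Markers of other cells moved between the same tissues. The 6 muscle markers summed to 4278 to 6023 CPM in thorax and the 5 photoreceptor markers to 30650 to 34750 CPM in head, against at most 99.8 CPM elsewhere. Thorax replicate 3 was the lowest thorax library for muscle, for hemocyte markers (349.6 CPM, against up to 702) and for the summed glial genes (2023 CPM). In eviscerated abdomen the 4 hemocyte markers were lower than in head for 4 of 4, with a median log2 change of -2.75 beside the -3.09 of the glial genes, and lower than in thorax for 4 of 4, with -3.76 beside -2.81. The 6 muscle markers had medians of -0.55 and -2.50 in these comparisons. The part of these cells in the glial levels was not tested.

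Over the 12 libraries the 8 genes followed each other, with Pearson's r of log2 CPM from 0.776 (Eaat1 with Mdr65) to 0.997 (Eaat1 with Gs2). Libraries of 1 tissue share their values, so these coefficients describe 4 tissues and carry no p. The search covered 7726 genes with a mean of at least 10 CPM, a count that includes members, which were left out of the ranking. The most like repo were lncRNA:noe (r 0.997), Gld (0.996), Gad1 (0.996), eas (0.995) and Ace (0.995). The most like the mean of the members were eEF1alpha2 (0.998), tadr (0.998), NfI (0.997), CG32694 (0.997) and IRSp53 (0.997). A like profile did not mean a like depth of fall: repo went from 36.6 CPM in head to 4.17 in the abdomen, Gad1, which makes GABA in neurons, from 251 to 1.64 CPM, and Ace, the acetylcholinesterase, from 243 to 1.54 CPM.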

How the data were processed

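Per the labels and the study's methods, the authors mapped the reads to the dm3 genome with TopHat2 2.0.10 and counted reads per gene model with easyRNASeq. Whether counting used strand is not given in the sources used here. The deposited raw counts were the main data, and the deposited RPKM values were used for levels between genes and for an alternative. Tables of repeats hold no gene rows and were not used. Of 13898 genes, 13376 matched a symbol in RefSeq Release 6, used for names and neighbours only. Counts were fitted with edgeR 4.0.16 (R 4.3.3): filterByExpr kept 11188 genes, with TMM scaling, 12 libraries in 1 quasi-likelihood fit with tissue as the only term (the authors corrected for batches that the sources used here do not name), 2-sided tests and Benjamini-Hochberg adjustment at 0.05. Alternatives used DESeq2 1.42.0 and limma 3.58.1 on log2(RPKM + 0.1) or log2(RPKM + 1), on which fold changes of low genes are understated. Ratios added 0.5 to each count. The fit scaled to neuron markers treats that scale as known without error.

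The members and lists were chosen with earlier results of these data known. Named are the 8 members, their paralogs, up to 3 genes with the largest change per other list, neuron markers by their range, and the 5 genes most alike to repo and to the member mean. Genes overlapping members, the Eaat1 to Gs2 ratio and further list genes that passed the test were named after their values were seen. Per the study, the 3 libraries of a tissue are independent. On simulated counts for 12022 genes, 84 of 100 genes changed by 1 on the log2 scale and 95 of 95 changed by 2 were recovered, with 8 false calls. The simulation drew every tissue from the head means with the same dispersion for every gene. It checks the fit and does not measure recovery or false calls at the spread of these libraries.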

Additional observations from a re-analysis of the deposited data

How the results depend on the processing

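For eviscerated abdomen or ovary against head or thorax, 8 of 8 members were called lower with each other scaling, filter, tool, block or left-out library tried. The exception is the fit scaled to neuron markers. It called 8 of 8 higher in eviscerated abdomen than in head (92.4% of all genes) and 6 of 8 higher than in thorax (88.0%). The counts that moved were those of thorax against head and of ovary against eviscerated abdomen. In thorax against head, limma on log2(RPKM + 0.1) and log2(RPKM + 1) called 4 and 5 members higher and 0 lower, and 1 was called lower with upper quartile scaling, no filter, only the compared tissues or the replicate block. Scaling by library size alone called 3 lower, and leaving out 1 library gave 1 to 2. In ovary against eviscerated abdomen the RPKM fits called 2 and 1 higher and 3 and 2 lower, and leaving out 1 library gave 6 to 7 lower. In the main fit, 36.9% to 46.4% of all genes were called lower in eviscerated abdomen or ovary against head or thorax. The shares of all genes called in the other fits, apart from the one scaled to neuron markers, were not counted.

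On the RPKM scales (pseudocount 0.1, then 1) the log2 change of thorax against head reversed for repo (0.56, 0.43), moody (0.95, 0.87), Gat (0.45, 0.39), nrv2 (0.74, 0.70) and alrm (0.44, 0.34), and that of ovary against eviscerated abdomen for repo (0.96, 0.41), moody (0.0041, 0.0001), Mdr65 (0.88, 0.18), nrv2 (0.46, 0.32) and alrm (0.35, 0.0894). The RPKM scale moved the median of all genes from -0.17 to 0.73 and 0.51 in the first comparison and from -0.01 to 1.74 and 1.43 in the second. Relative to that median, the member median of thorax against head was -0.13 on counts and -0.09 and 0.06 on RPKM, and in the second comparison every member lay below it on each of the 3 scales. Moody in thorax against head also reversed with upper quartile scaling (0.15), DESeq2 (0.0309), no filter (0.0438) and only the compared tissues (0.14), and ran from -0.0881 to 0.0568 with 1 library left out. Scaling by library size alone reversed Eaat1 (-0.0721) and Gs2 (-0.0606) there and Mdr65 in ovary against eviscerated abdomen (0.0403), which ran from -0.55 to 0.16 with 1 library left out. RPKM divides by a gene length that is the same in every tissue, so between tissues it differs from TMM CPM in the scaling of the libraries. Why that scaling differed was not tested.

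With elav as the only neuron marker, the ratio difference of eviscerated abdomen against thorax was -1.14 for repo, -1.03 for moody, -0.14 for Eaat1, -1.196 for Gs2, -1.86 for Gat, -2.40 for Mdr65, -1.24 for nrv2 and -2.18 for alrm, and against head -0.31 for Gat, -1.54 for Mdr65 and -0.62 for alrm.

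Replicate numbers did not visibly pair the samples: of 18 same-numbered pairs, 2 had a correlation of deviations over 0.1 (range -0.178 to 0.159). Pairs of unlike number reached 0.243 (eviscerated abdomen replicate 1 with ovary replicate 3). With 3 libraries per tissue, such correlations cannot decide whether libraries shared a batch. Under the replicate block, repo in thorax against head kept its log2 change of -0.39 and lost its call (adjusted p = 0.0731 in edgeR). Depth limits Mdr65, alrm and Gat in eviscerated abdomen and ovary, where single libraries held as few as 4 reads. It also limits the ratios for eviscerated abdomen through neuron markers with few reads, such as VGlut with 27 over the 3 libraries. The block changed no other call of a member.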
